A study of Mus musculus with 6 samples.

Results

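The semaphorin, Slit and ephrin families hold many of the known guidance cues, both secreted and bound to the membrane, and act through plexin, neuropilin, Robo and Eph receptors. Their RNA was measured by RNA-seq in mouse mesenchyme of the anterior palate. Members were found by gene symbol: semaphorins of classes 3 to 7, plexins, neuropilins, Slit1 to Slit3, Robo1 to Robo4, ephrins of types A and B, and Eph receptors of types A and B. Of 24421 genes listed, 61 matched. These were 20 semaphorins, 9 plexins, 2 neuropilins, 3 Slits, 4 Robos, 8 ephrins, 14 Eph receptors and 1 antisense RNA, Plxna4os1. A base mean, the mean normalised read count over all libraries, of at least 10 was reached by 58 members. The 3 below it were Epha8, Epha10 and Robo3.

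The study compared 3 wildtype with 3 Wnt1Cre;Meis2f/f samples, all at E12.5 and on a C57BL/6 background, to ask what changes in palatal gene expression when Meis2 is lost. Meis2 encodes a homeodomain transcription factor. Wnt1Cre recombines floxed alleles in neural crest cells, which give rise to most of this mesenchyme. Endothelial cells, macrophages and skeletal muscle cells come from other lineages. The control was wildtype, and a group carrying Wnt1Cre alone was not analysed here. The palatal epithelium had been removed with Dispase II. The sources used here do not say how many embryos made up a sample. The deposited tables hold comparisons and not libraries, but whole reads per library were solved from them for all 61 members. The libraries are called wildtype A, B and C and mutant A, B and C. The letters are names only and tie no wildtype to a mutant library, except that both C libraries are absent from the second deposited table, which holds the other 4.

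Cues and receptors of these families steer growing axons and migrating cells, mostly by local changes of the cytoskeleton. Semaphorins signal through plexins, and most of the secreted class 3 members need a neuropilin as co-receptor. Slits are large secreted proteins that bind Robo receptors. Ephrins and Eph receptors both sit in the cell membrane and signal in both directions between touching cells. In the head they are known from neural crest migration, and loss of ephrin B1 leads to cleft palate in mice.

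Meis2 had normalised reads of 1526, 1695 and 1549 in wildtype A, B and C and of 1250.0, 1218 and 1378 in mutant A, B and C. All mutant libraries were below all wildtype libraries, and mutant levels were 0.81 of wildtype. Meis2 itself was not called with 6 libraries (DESeq2 adjusted p = 0.0743) and was called with 4 (adjusted p = 0.0213) per the authors' deposited tables. Whether the counted reads lie in the deleted part is not known. The tables do not name the sign of a fold change. Mutant libraries were taken to be the side on which Meis2 is lower, and all directions below depend on this. Reads assigned to the solved genes ran from 9360751 to 16976730 per library, and size factors differed by up to 1.86-fold. Marker lists of other cells moved with genotype. The summed normalised reads of 8 neuron markers were 556 to 1002 in wildtype and 360.3 to 404 in mutant libraries, and 4 of 8 were called lower in the authors' deposited table. Sums of 7 muscle markers were 374 to 498 in wildtype and 822 to 1453 in mutant libraries, with 5 called higher. Sums of 5 macrophage markers were 571 to 704 and 913 to 1049, with 3 called higher. Endothelial sums overlapped, from 5120.1 to 6514 in wildtype and from 5447 to 6446 in mutant libraries, with 0 of 6 called, as did epithelial sums, from 822 to 1236 and from 889 to 1151, also with 0 of 6 called. The 7 markers of palatal mesenchyme summed to 43628 to 46222 in wildtype and 41732 to 42372 in mutant libraries. Prrx1 and Twist1 were called lower among them, in both tables, while Pdgfra was higher in all mutant than in all wildtype libraries (ratio 1.17) and was called higher with 4 libraries alone (DESeq2 adjusted p = 0.0473, authors' deposited table). Of 6 Schwann cell and glial markers, with sums of 1179 to 1528 and 1041 to 1168, 1 was called lower. With 4 libraries, fewer of the markers were called: 1 of the neuron markers (Dcx), 2 of the muscle markers (Myog and Tnnt1), 2 of the macrophage markers (Csf1r and Mrc1) and 0 of the Schwann cell and glial markers. No list had a gene without reads. In bulk RNA, fewer cells of a type and less RNA per cell cannot be told apart.

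The promoter windows of Epha3, Robo2 and Sema6d are shown because these 3 members were called in both deposited tables. They are RefSeq sequences of build GRCm38.p6, from 250 bases before to 50 bases after an annotated start, given 5′ to 3′ on the gene's strand. Capitals mark TGACAG or its complement strand CTGTCA, the core of the known Meis binding motif, searched on both strands. Epha3 has 1 window, at chr16:63864126-63864425 on the minus strand, with no match. Robo2 has 3 windows on the minus strand, of which the upstream starts at chr16:75447244-75447543 and chr16:75092721-75093020 each hold 1 match and the third, at chr16:74411776-74412075, holds none and is not printed. Sema6d has 2 windows on the plus strand with no match, and the upstream one, at chr2:124089719-124090018, is printed.
Epha3 window: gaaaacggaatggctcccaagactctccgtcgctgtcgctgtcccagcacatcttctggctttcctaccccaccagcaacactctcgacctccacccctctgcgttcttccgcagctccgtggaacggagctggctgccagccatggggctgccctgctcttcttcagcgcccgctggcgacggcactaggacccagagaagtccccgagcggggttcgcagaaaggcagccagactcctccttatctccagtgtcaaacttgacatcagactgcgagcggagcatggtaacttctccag
Robo2 first window: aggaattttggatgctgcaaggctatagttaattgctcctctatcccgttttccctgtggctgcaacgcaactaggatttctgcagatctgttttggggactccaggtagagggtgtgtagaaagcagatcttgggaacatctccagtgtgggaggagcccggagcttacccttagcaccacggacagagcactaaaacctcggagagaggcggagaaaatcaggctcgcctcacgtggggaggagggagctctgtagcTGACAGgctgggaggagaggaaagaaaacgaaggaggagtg
Robo2 second window: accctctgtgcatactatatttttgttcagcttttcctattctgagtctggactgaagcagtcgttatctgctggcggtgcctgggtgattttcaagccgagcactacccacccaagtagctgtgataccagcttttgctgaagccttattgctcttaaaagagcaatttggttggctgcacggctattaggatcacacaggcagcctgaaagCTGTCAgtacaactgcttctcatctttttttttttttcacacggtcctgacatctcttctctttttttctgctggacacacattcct
Sema6d upstream window: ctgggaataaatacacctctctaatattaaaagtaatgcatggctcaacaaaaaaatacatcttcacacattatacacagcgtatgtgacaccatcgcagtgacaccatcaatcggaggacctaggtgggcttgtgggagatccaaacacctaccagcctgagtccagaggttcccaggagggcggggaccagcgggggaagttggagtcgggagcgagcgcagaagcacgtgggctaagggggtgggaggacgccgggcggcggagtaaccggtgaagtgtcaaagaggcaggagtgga
The motif stood in 12 of the 69 windows of the 53 members with an entry, or 17.4%, and in 19.2% of all 32851 windows of that table. The single windows of Efna5 and Sema5a held none. A match describes letters in a window and shows no binding.

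In the authors' deposited table of all 6 libraries, 5 members were called higher in the mutant at an adjusted p under 0.05 (DESeq2 Wald test) and 0 were called lower. They were the ephrin ligand Efna5, the ephrin receptor Epha3, the Slit receptor Robo2 and the transmembrane semaphorins Sema5a and Sema6d. Among all 14942 genes with an adjusted p, 1.75% were called higher and 1.16% lower. At an unadjusted p under 0.05, 17 of the 58 members were higher and 5 lower, beside 5.46% and 5.21% of all genes at that base mean. The authors' deposited table of 4 libraries called 3 of the 5 higher, Epha3, Robo2 and Sema6d, and 1 member lower, the semaphorin Sema6a. Its background was 1.31% higher and 0.99% lower. Both tables share 4 libraries, so they are not independent of each other.

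The median moderated log2 fold change of the 58 members was 0.09 in each of the authors' deposited tables, beside -0.01 and -0.0017 for all genes at that level. With all 6 libraries, 39 of the 58 lay above 0, which is 67.2% of them, beside 46.1% of all genes. The changes were small, and the 5 that were called ran from 0.29 to 0.40.

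**Figure D1:**
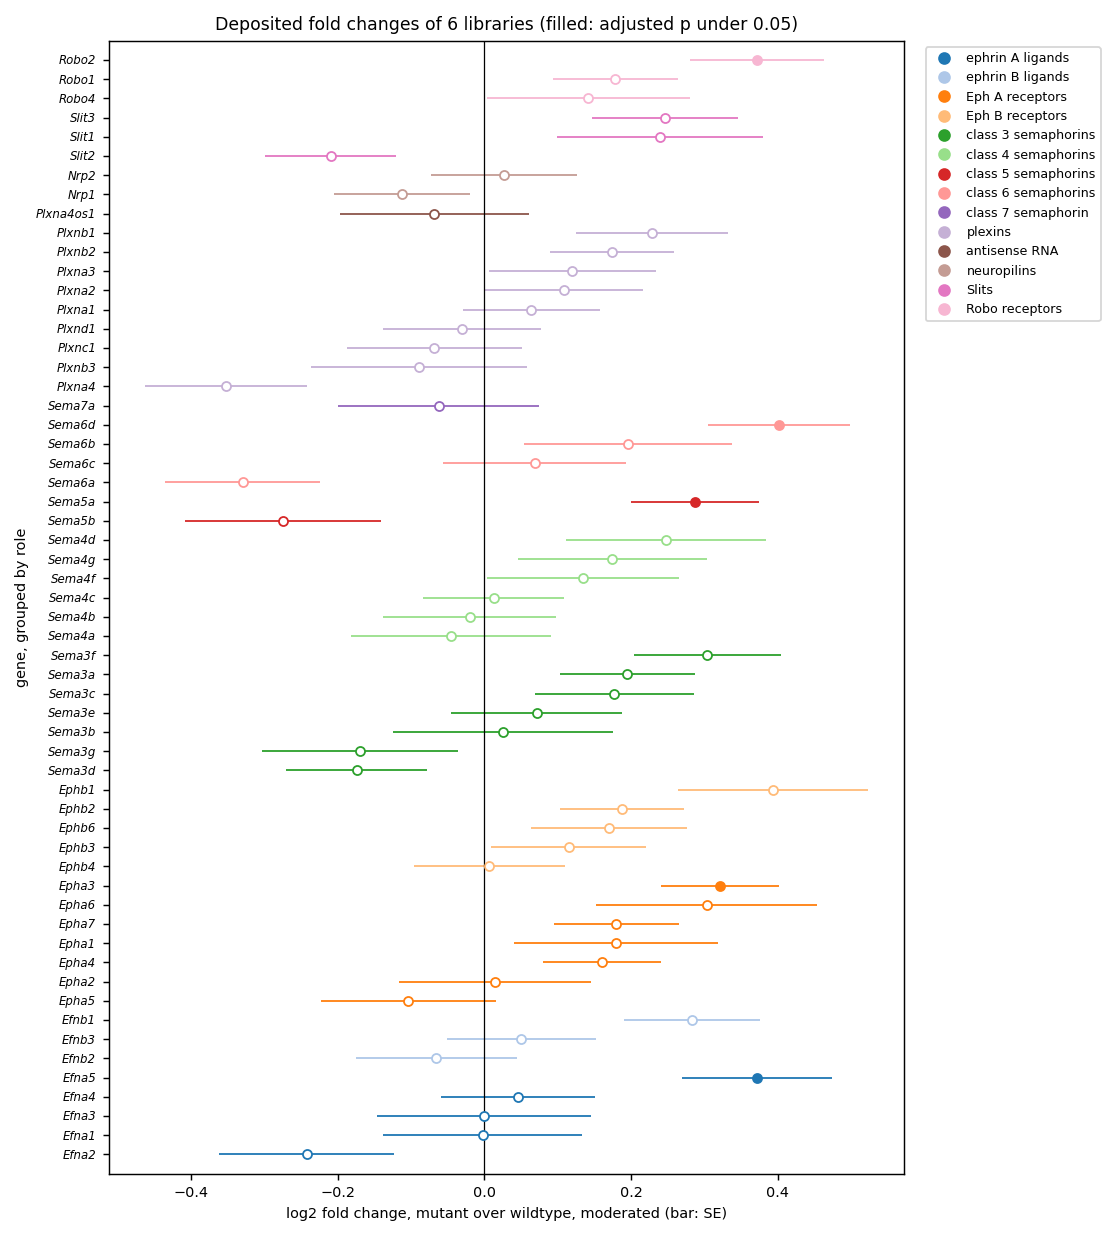
Moderated log2 fold change, mutant over wildtype, of the 58 members in the authors' deposited 6-library table (horizontal axis), grouped by role (vertical axis), with the standard error as a bar and filled points for an adjusted p under 0.05. The 5 filled points lie between 0.29 and 0.40, and 39 of 58 points lie above 0.

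The per-library reads show the same members against the spread between libraries. All 3 mutant libraries lay above all 3 wildtype libraries for 19 of the 58 members, beside 8.79% of all 14536 solved genes, and below them for 4 members, beside 8.87%. The 19 were Efna5, Efnb1, Epha3, Epha4, Epha6, Epha7, Ephb1, Ephb2, Ephb6, Plxnb2, Robo1, Robo2, Sema3a, Sema3c, Sema3f, Sema4d, Sema5a, Sema6b and Sema6d. The 4 were Plxna4, Sema5b, Sema6a and Slit2. An exact permutation test of 3 against 3 cannot go below p = 0.1, so this is a count and not a test. Scaling to total reads left both counts at 19 and 4, with Efna2 in place of Sema5b.

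Many members are long genes, and long genes were more often higher without overlap than all solved genes. Their share that was lower was close to that of all solved genes. Of the 2105 solved genes spanning at least 100 kb, 18.4% were higher and 9.74% lower without overlap. Among the 27 members of that span 14 were higher, 4 lower and 9 overlapped. The 31 shorter members had 5 higher, 0 lower and 26 overlapping. Of solved genes of any span, 8.79% were higher and 8.87% lower, and shorter genes were not counted apart. All 5 members called in the 6-library table span more than 100 kb in the GENCODE annotation, from 277134 bases for Efna5 to 577802 for Sema6d. Robo2 spans 519987 bases there, and its upstream RefSeq starts printed above lie beyond that span. The part of gene length in these differences was not tested.

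Both C libraries were the highest of their genotype for 31 of the 58 members, or 53.4%, while this held for 23.1% of all solved genes. Among the other 4 libraries alone, groups did not overlap for 28 members higher and 11 lower, beside 22.0% and 25.2% of all solved genes.

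**Figure D2:**
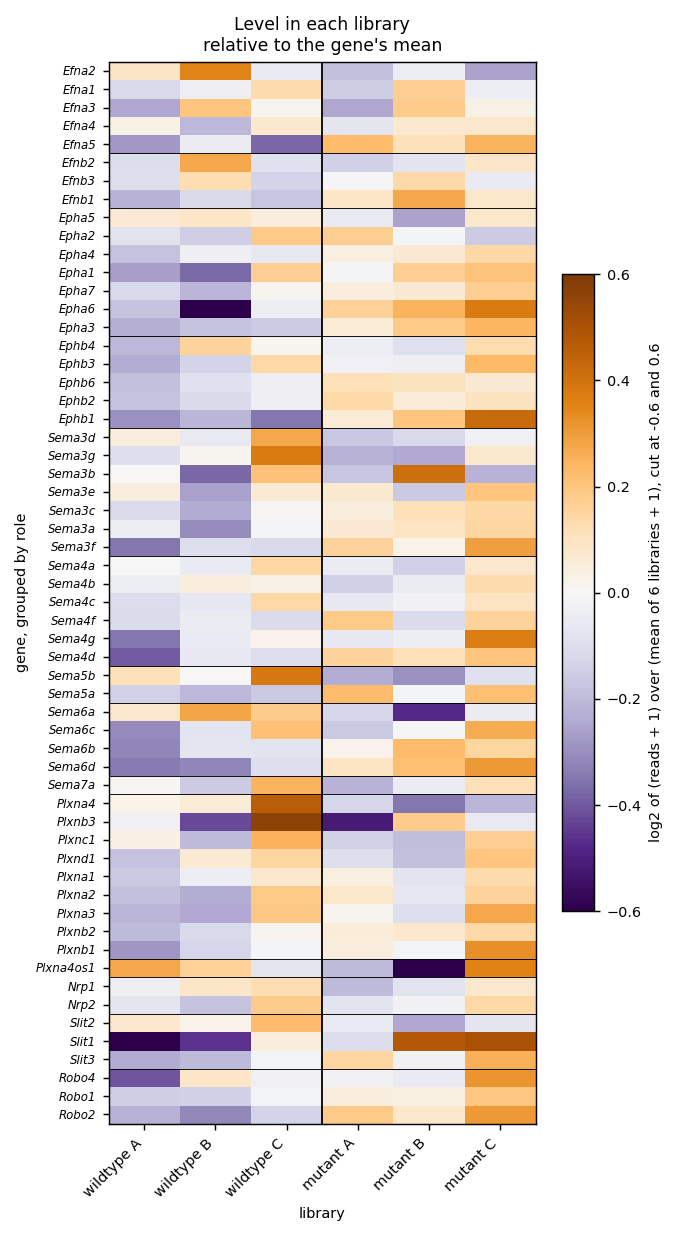
Normalised reads of 58 members (vertical axis, grouped by role) in each library (horizontal axis), as the log2 ratio of reads + 1 to the gene's mean over 6 libraries + 1, with the color scale ending at -0.6 and 0.6. Orange marks a library above the gene's mean and purple one below; 19 members are higher in all mutant libraries than in any wildtype library and 4 are lower.

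Ephrin A ligands are held in the membrane by a lipid anchor and bind mainly Eph A receptors. Of 5 members, 1 was called higher and 0 lower. Efna5 had 736, 866 and 688 normalised reads in wildtype A, B and C and 1049, 966 and 1061 in mutant A, B and C. All mutant libraries were above all wildtype libraries, and the means were 764 ± 92.2 and 1025 ± 51.7 (SD, n = 3), a ratio of 1.34. The authors' deposited table gave a moderated log2 fold change of 0.37 (SE 0.10, DESeq2 adjusted p = 0.0127), and the 4-library table gave 0.29 (SE 0.11, adjusted p = 0.163). Efna5 thus passed the threshold with all libraries and missed it without the C libraries. The most abundant A ligand per kb of exon was Efna4, at 379 normalised reads per kb in wildtype and 395 in mutant, with overlapping groups. Efna1 and Efna3 had means of 129 and 25.8 normalised reads in both genotypes. Efna2 was at 315 to 416 in wildtype and 272 to 317 in mutant libraries, which overlapped by one wildtype and one mutant library.

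Ephrin B ligands span the membrane and can signal into their own cell. None of the 3 was called. Efnb1, which lies on the X chromosome, had 1059, 1136 and 1094 normalised reads in wildtype and 1306, 1489.5 and 1302 in mutant A, B and C. The groups did not overlap, with a ratio of means of 1.25. The authors' deposited table gave it a moderated log2 fold change of 0.28 (SE 0.09, DESeq2 adjusted p = 0.0706), and with 4 libraries 0.31 (SE 0.10, adjusted p = 0.0673). The Y-linked gene Uty, a check on the sex of the embryos chosen after its values were seen, had 899 to 1329 normalised reads in wildtype and 1458 to 1618 in mutant libraries. Of 4 Y-linked genes looked at, Uty and Kdm5d were called higher per the authors' deposited table (DESeq2 adjusted p = 0.00976 and 0.0451), while Ddx3y and Eif2s3y were not (0.418 and 0.386), and Kdm5d, Ddx3y and Eif2s3y overlapped between genotypes. All 4 were called higher with 4 libraries. The plexin genes Plxna3 and Plxnb3 also lie on the X chromosome. The part of sex in the values of Efnb1, of these plexins or of any other member was not tested. Efnb2 and Efnb3 overlapped, with means of 876 ± 135 and 757 ± 75.3 in wildtype and 829 ± 69.0 and 788 ± 53.9 in mutant libraries (SD, n = 3).

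Eph A receptors, the receptor tyrosine kinases for A ligands, held the most abundant members of all. Epha3, Epha4 and Epha7 had 1708, 1211 and 973 normalised reads per kb of exon in wildtype and 2174, 1365 and 1115 in mutant libraries. Epha3 stood at 14435, 14955 and 15152 normalised reads in wildtype A, B and C and at 17591, 19178 and 19933 in mutant A, B and C. The genotypes did not overlap, with means of 14847 ± 370.4 and 18901 ± 1195 (SD, n = 3) and a ratio of 1.27. The authors' deposited table gave 0.32 on the moderated log2 scale (SE 0.08, DESeq2 adjusted p = 0.00393), and 0.31 with 4 libraries (SE 0.07, adjusted p = 0.00147). Epha3 spans 320642 bases at chr16:63543534-63864175 in the GENCODE annotation of GRCm38.

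Epha4 and Epha7, both known from the developing head and nervous system, also had higher reads in every mutant than in any wildtype library, yet neither was called. Epha4 was at 9165, 10147 and 9951 in wildtype and at 10668, 10859.5 and 11462 in mutant libraries A, B and C. For Epha7 the wildtype values were 9495, 8929 and 10415 and the mutant values 10653, 10814 and 11600.2. Their ratios of means were 1.13 and 1.15, and the DESeq2 adjusted p was 0.464 and 0.409 per the authors' deposited table. Epha6, a weakly read receptor, had 28.4 to 52.0 normalised reads in wildtype and 59.8 to 69.6 in mutant libraries. Its groups did not overlap either, and the authors' deposited table lists a DESeq2 adjusted p of 0.45. Epha1, Epha2 and Epha5 overlapped between genotypes, with ratios of means of 1.20, 1.01 and 0.91. Epha8 and Epha10 had at most 2.78 and 11.8 normalised reads in any library.

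All 5 Eph B receptors had log2 fold changes above 0, from 0.0067 to 0.39, per the authors' deposited 6-library table, and none was called by DESeq2. With 4 libraries the value of Ephb4 was -0.03. Ephb1 had the largest change of the group. Its normalised reads were 151, 160.1 and 145 in wildtype and 193, 213 and 249 in mutant A, B and C. The genotypes did not overlap, and the ratio of means was 1.44. The authors' deposited table gave a moderated log2 fold change of 0.39 (SE 0.13, DESeq2 adjusted p = 0.0705), and 0.24 with 4 libraries (SE 0.14, adjusted p = 0.666). Of the 6 libraries wildtype C was the lowest and mutant C the highest. Ephb2, a receptor for B ephrins and the group's member with most reads, had 1888, 1970.3 and 2091 in wildtype and 2348, 2218 and 2289.9 in mutant libraries. These too were apart, with a ratio of 1.15, a log2 fold change of 0.19 and a DESeq2 adjusted p of 0.351 per the authors' deposited table. Ephb6, a receptor whose kinase is inactive, was at 348 to 388 in wildtype and 416 to 429 in mutant libraries without overlap. Ephb3 and Ephb4, the latter known from veins, overlapped, with ratios of means of 1.10 and 1.00.

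**Figure D3:**
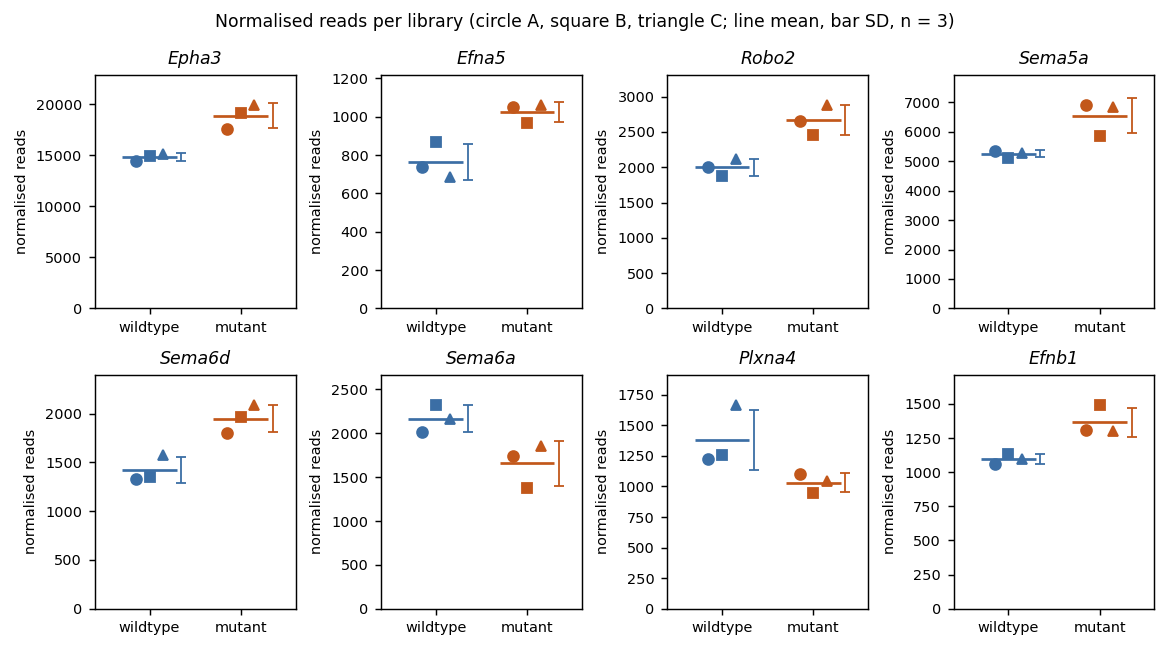
Normalised reads (vertical axes, each from 0) of Epha3, Efna5, Robo2, Sema5a, Sema6d, Sema6a, Plxna4 and Efnb1 in each library, by genotype (horizontal axis), with A as a circle, B as a square and C as a triangle, a line for the mean and a bar for the SD (n = 3). Groups do not overlap for any of the 8; Sema6a and Plxna4 are lower in the mutant and the other 6 are higher.

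Class 3 semaphorins are secreted and most act through neuropilins and A-type plexins. None of the 7 was called, and 3 were higher in every mutant than in any wildtype library. Sema3f, which acts mainly through Nrp2, had 1053, 1254 and 1237 normalised reads in wildtype and 1493, 1367 and 1642 in mutant A, B and C. The groups were apart by the gap between 1254 and 1367, and the ratio of means was 1.27. The authors' deposited table listed a moderated log2 fold change of 0.30 (SE 0.10, DESeq2 adjusted p = 0.0733), and 0.28 with 4 libraries (SE 0.10, adjusted p = 0.157). Sema3a, a repellent that acts through Nrp1 and the class member with most reads, had 3337, 2779.8 and 3397 in wildtype and 3600.4, 3671 and 3793 in mutant libraries. It did not overlap, with a ratio of 1.16 and a log2 fold change of 0.19 (DESeq2 adjusted p = 0.405) per the authors' deposited table. Sema3c, known from heart outflow tract neural crest, was at 342 to 406 and 415 to 446. Sema3d and Sema3g had lower means in the mutant, by ratios of 0.87 and 0.85, and overlapped. Sema3b and Sema3e overlapped as well, with ratios of means of 1.05 and 1.06.

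Class 4 semaphorins are transmembrane ligands, several of them for B-type plexins. None of the 6 was called. Sema4c, a ligand of Plexin B2, had most reads of the class, at 1091, 1123 and 1290.3 in wildtype and 1128, 1157 and 1253 in mutant libraries. The genotypes overlapped, and the authors' deposited table gave a log2 fold change of 0.01 (SE 0.10, DESeq2 adjusted p = 0.983). Sema4d, a ligand of Plexin B1, was at 96.7, 123 and 119 in wildtype and at 143, 138 and 147 in mutant A, B and C. It was the class member whose groups did not overlap, with a log2 fold change of 0.25 (SE 0.14, DESeq2 adjusted p = 0.544) per the authors' deposited table. Sema4a, Sema4b, Sema4f and Sema4g overlapped, with ratios of means from 0.95 for Sema4a to 1.17 for Sema4g.

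Class 5 semaphorins carry thrombospondin repeats. Of 2 members, 1 was called higher and 0 lower. Sema5a had 5359, 5123 and 5268 normalised reads in wildtype and 6904, 5853 and 6853 in mutant A, B and C. All mutant libraries were higher, though the mutant libraries spread more, with means of 5250.0 ± 119 and 6536 ± 593 (SD, n = 3) and a ratio of 1.25. The authors' deposited table gave a moderated log2 fold change of 0.29 (SE 0.09, DESeq2 adjusted p = 0.0369), and 0.26 with 4 libraries (SE 0.08, adjusted p = 0.0636). Sema5b was at 159, 147 and 193 in wildtype and at 125, 119.8 and 138 in mutant libraries. It was lower without overlap, at 0.77 of wildtype, and was not called (log2 fold change -0.27, DESeq2 adjusted p = 0.432, authors' deposited table).

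Class 6 semaphorins are transmembrane proteins that bind A-type plexins and can also act as receptors. This class held the largest called change and the one member called lower in either table. Sema6d, a ligand of Plexin A1, had 1333, 1354 and 1579 normalised reads in wildtype and 1799, 1963 and 2084 in mutant A, B and C. Every mutant library was above every wildtype library, with means of 1422 ± 136 and 1949 ± 143 (SD, n = 3) and a ratio of 1.37. The authors' deposited table gave a moderated log2 fold change of 0.40 (SE 0.10, DESeq2 adjusted p = 0.0021), and with 4 libraries 0.44 (SE 0.09, adjusted p = 0.000146). Sema6d spans 577802 bases at chr2:124089969-124667770.

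Sema6a, a ligand of Plexin A2 and Plexin A4, had 2014, 2319 and 2164 normalised reads in wildtype and 1746, 1372 and 1851 in mutant A, B and C. All mutant libraries were below all wildtype libraries, and mutant B was the lowest. The means were 2166 ± 152 and 1656 ± 252 (SD, n = 3), a ratio of 0.77. The authors' deposited table gave a moderated log2 fold change of -0.33 (SE 0.11, DESeq2 adjusted p = 0.058), just outside the threshold, and -0.39 with 4 libraries (SE 0.10, adjusted p = 0.0105), inside it. Sema6b was at 75.1 to 89.1 in wildtype and 95.3 to 110.1 in mutant libraries without overlap, and Sema6c overlapped. Sema7a, the one class 7 member and a lipid-anchored ligand of Plexin C1, had 133, 119 and 157 in wildtype and 114, 128 and 144 in mutant libraries. Its genotypes overlapped, and its log2 fold change was -0.06 (SE 0.14, DESeq2 adjusted p = 0.939) in the authors' deposited table.

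Plexins are the signalling receptors of semaphorins. None of the 9 was called in either table. Plxna4, a receptor for class 3 and class 6 semaphorins that is known from sensory neurons, had 1226, 1256 and 1663 normalised reads in wildtype and 1103, 947 and 1043 in mutant A, B and C. All mutant libraries were lower, with means of 1382 ± 244 and 1031 ± 79.1 (SD, n = 3) and a ratio of 0.75. The authors' deposited table gave a moderated log2 fold change of -0.35 (SE 0.11, DESeq2 adjusted p = 0.0502), and -0.23 with 4 libraries (SE 0.10, adjusted p = 0.347). The wildtype C library, highest for Plxna4, was also highest for the neuron markers, whose sums were 649.6, 556 and 1002 in wildtype and 396, 404 and 360.3 in mutant A, B and C. Every wildtype library was above every mutant library for both. Otherwise the order within a genotype differed. Wildtype A was above wildtype B for the markers and below it for Plxna4. Mutant B was the highest mutant library for the markers and the lowest for Plxna4. The part of neuron content in the Plxna4 values was not tested.

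Plxnb2, a widely expressed B-type plexin, had the most reads of the plexins, at 6302, 6658 and 7338 in wildtype and 7530.4, 7651 and 7979 in mutant libraries. Its groups did not overlap, with a ratio of 1.14, a log2 fold change of 0.17 (SE 0.08, DESeq2 adjusted p = 0.428) per the authors' deposited table and an adjusted p of 0.0756 with 4 libraries. Plxna1, Plxna2, Plxna3, Plxnb1, Plxnb3, Plxnc1 and Plxnd1 overlapped between genotypes, with ratios of means from 0.87 for Plxnb3 to 1.20 for Plxnb1. Plxnd1, a receptor of vessels, stood at 1771 to 2237 in wildtype and 1765 to 2307 in mutant libraries, and the endothelial markers named above overlapped too. Plxna4os1, an antisense RNA within the Plxna4 locus, had 7.34 to 17.9 normalised reads in any library (log2 fold change -0.07, SE 0.13, DESeq2 adjusted p = 0.933, authors' deposited table). By annotated exons, no gene overlapped Plxna4os1, and Plxna4os3 alone overlapped Plxna4. The sources used here do not say whether counting used strand. Whether intron reads of Plxna4 were counted to Plxna4os1 is therefore not known.

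Neuropilins, the co-receptors of class 3 semaphorins, showed no called change. Nrp1 had 2867, 3114 and 3200.5 normalised reads in wildtype and 2555, 2767 and 3089 in mutant libraries. Nrp2 had 3576, 3331 and 4255 in wildtype and 3561, 3702 and 4134 in mutant libraries. Both overlapped, and the authors' deposited table gave log2 fold changes of -0.11 (SE 0.09, DESeq2 adjusted p = 0.778) and 0.03 (SE 0.10, adjusted p = 0.966).

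Slits are secreted repellents. None of the 3 was called, and Slit2 and Slit3 differed in direction. Slit2 had 4567, 4401 and 5064 normalised reads in wildtype and 4171, 3652 and 4117 in mutant A, B and C. It was lower in every mutant than in any wildtype library, at 0.85 of wildtype, with a log2 fold change of -0.21 (SE 0.09, DESeq2 adjusted p = 0.301) per the authors' deposited table. Slit3 had 1034, 1061 and 1205 in wildtype and 1350.1, 1201 and 1453 in mutant libraries. These overlapped by wildtype C and mutant B, and the log2 fold change was 0.25 (SE 0.10, DESeq2 adjusted p = 0.244) per the authors' deposited table. Slit1 had at most 31.1 normalised reads in any library.

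Robo receptors bind Slits through their immunoglobulin domains. Of 4 members, 1 was called higher and 0 lower. Robo2 had 1999.9, 1876 and 2122 normalised reads in wildtype and 2650.2, 2458 and 2881 in mutant A, B and C. All mutant libraries lay above all wildtype libraries, with means of 1999 ± 123 and 2663 ± 212 (SD, n = 3) and a ratio of 1.33. The authors' deposited table gave a moderated log2 fold change of 0.37 (SE 0.09, DESeq2 adjusted p = 0.00295), and the same 0.37 with 4 libraries (SE 0.09, adjusted p = 0.00155). Robo1, also on chromosome 16, had 3629.9, 3646 and 3976 in wildtype and 4145, 4142 and 4599 in mutant libraries. It too did not overlap, with a ratio of 1.15 and a log2 fold change of 0.18 (SE 0.09, DESeq2 adjusted p = 0.414) per the authors' deposited table. Robo4, the endothelial Robo, overlapped, at 108 to 152 in wildtype and 138 to 179 in mutant libraries. Robo3 had at most 6.59 normalised reads in any library.

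**Figure D4:**
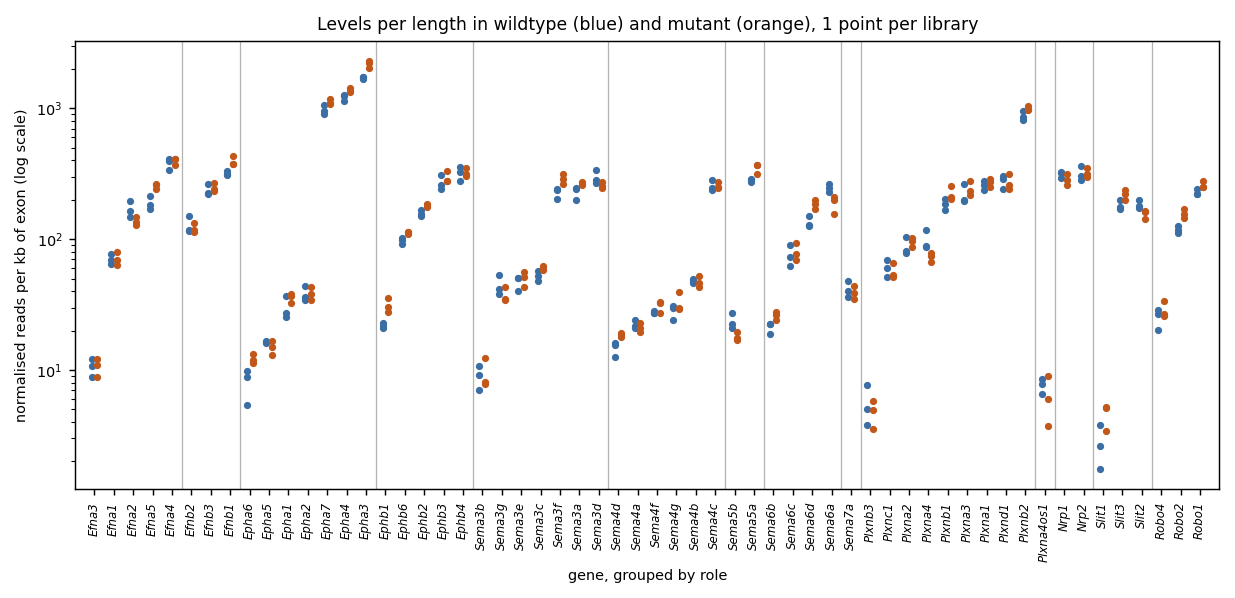
Normalised reads per kb of exon (vertical axis, log scale) of the 58 members (horizontal axis, grouped by role), with 1 point per library, wildtype in blue and mutant in orange. Epha3, Epha4, Epha7 and Plxnb2 stand highest, with wildtype means of 1708, 1211, 973 and 876 per kb.

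Per kb of exon the most abundant members after these were Efna4, Ephb4, Efnb1, Nrp2 and Nrp1, at 379, 320.5, 318, 314 and 313 normalised reads per kb in wildtype. Neighbours among these 5 overlapped in wildtype, as Epha7 and Plxnb2 did, while Epha3 and Epha4 each stood apart from the next. Slit2 and Slit3 were alike in wildtype, at 184 and 181 per kb, and stood at 156 and 220.0 per kb in mutant libraries. Robo1 was at 227 and Robo2 at 118 per kb in wildtype, and at 260.1 and 157 in mutant libraries. Sema5a, Sema3d, Sema4c, Sema6a, Sema3a and Sema3f led the semaphorins, between 227 and 296 per kb in wildtype.

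A limma fit on log2(normalised reads + 1) over the 14536 solved genes called 2 members higher, Robo2 (log2 fold change 0.41, SE 0.09, adjusted p = 0.036) and Sema6d (0.46, SE 0.09, adjusted p = 0.0328), and 0 lower. At this setting 1.28% of genes were called higher and 0.846% lower. Efna5, Epha3 and Sema5a had limma adjusted p of 0.0594, 0.0606 and 0.115. Leaving out each library in turn moved the limma adjusted p of Robo2 between 0.038 and 0.168 and that of Sema6d between 0.0166 and 0.192. Robo2 was called without wildtype C and without mutant B, Sema6d without wildtype C alone, Efna5 without wildtype B alone, Sema5a without mutant B alone and Epha3 in none of the 6 fits. Without mutant C, Sema6a was called lower (log2 fold change -0.48, limma adjusted p = 0.0392). Directions of these 5 members were the same in each fit that left out a library, with the lowest log2 fold change at 0.27, for Sema5a.

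With a term for whether a library was in the second deposited table, an alternative added after the data were seen, limma called 15 members higher and 3 lower, while 4.57% of all genes were called higher and 5.72% lower. The 15 were the 5 named above with Efnb1, Epha7, Ephb1, Ephb2, Plxnb1, Plxnb2, Robo1, Sema3a, Sema3f and Slit3. The 3 lower were Plxna4 (log2 fold change -0.41, limma adjusted p = 0.00621), Sema6a (-0.40, limma adjusted p = 0.0102) and Slit2 (-0.23, limma adjusted p = 0.0232). The term takes up the level that both C libraries share, in which 31 of 58 members were highest.

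Partners of these receptors inside the cell and in its membrane were read as well. Of 44 such genes, 43 reached a base mean of 10, and the median of their log2 fold changes, per the authors' deposited table, was 0.03, with 26 above 0. By DESeq2, 2 of the 43 were called higher and 0 lower there, beside 1.75% and 1.16% of all genes. Grip1, a scaffold that binds ephrin B ligands and Eph receptors, had 316, 281 and 299 normalised reads in wildtype and 387, 434 and 439 in mutant A, B and C. Dpysl4, of the collapsin response mediator family that acts downstream of semaphorins, had 416, 448 and 432 in wildtype and 596, 575 and 533 in mutant libraries. Neither overlapped, and the authors' deposited table gave log2 fold changes of 0.41 (SE 0.11, DESeq2 adjusted p = 0.012) and 0.34 (SE 0.10, adjusted p = 0.0311). With 4 libraries their adjusted p was 0.175 and 0.0691 in that deposited table. Groups did not overlap for 4 partners higher and 1 lower of 43, beside 8.79% and 8.87% of all solved genes. The higher count is thus near the background, and the lower count is under it.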

How the data were processed

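RNA-seq was made from 6 samples, 3 per genotype, which the labels call biological replicates; whether they came from separate litters is not given, so p-values measure the spread between these samples. RNA was amplified before TruSeq library preparation, per the labels' protocols. The submitters' processing notes list the tools HISAT2, featureCounts and DESeq2 and the builds GRCm38 and mm10. The sources used here give no versions or settings.

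The deposited tables are the authors' own DESeq2 comparisons. The authors deposited the base mean as a signal, the size-factor normalised reads averaged over libraries. The authors deposited moderated log2 fold changes with standard errors, and those of genes with few reads are drawn toward 0. The Wald statistic is a score computed by the authors. Each p-value and its Benjamini-Hochberg adjusted form, over all genes of a table, come from the authors too. The first table holds all 6 libraries and the second 4 of the same, although the series' text speaks of single pairs. The third holds genes of the first with a p under 0.05 and was not used.

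A gene with 1 read has a base mean that gives its library's size factor, so whole reads per library were solved from the base means of both tables. Where several sets of reads were possible, the one whose refitted fold change matched the deposited one (tolerance 2e-06 on the log2 scale) was kept. Of 14577 genes at a base mean of 10 or more, 14536 were solved, and 23 lay above the limit of 20000 set for the solution. On data simulated with the same fold change fit that the solution uses, all 14515 genes came back to the simulated reads. Refitted and deposited fold changes of the members differ by at most 4.9e-07 with 6 libraries. Over all solved genes at that base mean the largest difference was 5.16e-05. Where several sets of reads were possible, this match was the rule of choice and is no separate check. Normalised reads are these reads divided by the size factor, and values per kb divide them by the exon length of GENCODE vM21.

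Genes were called at an adjusted p under 0.05 in the 6-library table across all genes. The limma fits (limma 3.58.1, R 4.3.3) used a mean trend over the solved genes, with a pseudocount of 1 or 0.5. On simulated counts of 14515 genes, limma called 93% of 100 genes changed 2-fold, 22% of 100 changed 1.3-fold and 0.0279% of the 14315 unchanged ones. The simulated spread was set by a formula and not estimated from these libraries. It held no level shared by the C libraries, so these rates may not hold for the data.

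The members, the partner and marker lists and the rules were chosen with earlier results of these data known. Values are given in full for members called in either table and, in each role group, for the member with the highest base mean and the one with the largest fold change; called partners are named. Other members whose values are given were chosen after their values were seen. Reads of Epha1, Epha10, Ephb4, Nrp1 and Sema4a may be shared with Zyx, 1700125G02Rik, Zan, Mir1903 and Mir7011, which overlap them. Promoter windows come from RefSeq.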

Additional observations from a re-analysis of the deposited data

How the results depend on the processing

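Members called numbered 5 higher and 0 lower with the deposited DESeq2 test. They were 3 higher and 1 lower with 4 libraries, 3 higher and 0 lower at an adjusted p under 0.01, and 8 higher and 2 lower under 0.1. Base mean limits of 10 and 100 left the counts at 5 and 0. The share of all genes called was not counted at these other thresholds and limits. Nor was it counted for the pseudocount of 0.5 or the fits with a library left out. Member and partner counts at those settings therefore have no background beside them. The limma fit called 2 higher and 0 lower with a pseudocount of 1 and of 0.5, 15 higher and 3 lower with the term for the second table, and 0 to 2 higher and 0 to 1 lower when each library was left out in turn. Partners called numbered 2 higher and 0 lower. They were 0 higher with 4 libraries and at an adjusted p under 0.01, 1 higher by limma with either pseudocount, 2 higher and 2 lower (Crmp1, Dpysl2) with the term (4.57% and 5.72% of all genes), and 0 to 1 higher with each library left out. Without the C libraries, groups did not overlap for 28 members higher and 11 lower. The causes of these shifts were not tested. Some fits had fewer libraries and also lacked particular ones, and these effects cannot be told apart.

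Among the 22 members given in full, 167 values under the alternatives kept direction and side of the threshold, 33 kept direction and lost the call and 13 kept direction and gained one. The other 7 changed sign, in limma fits without 1 library, for members not called in any fit. With each library left out, Nrp2 ranged from -0.041 to 0.136 and was below 0 without wildtype B and without mutant C. Sema4c ranged from -0.031 to 0.089 and was below 0 without wildtype A, wildtype B or mutant C. Sema7a ranged from -0.175 to 0.026 and was above 0 without wildtype C and without mutant A. No paired analysis was possible because the deposited tables carry no replicate numbers. Members with few reads, such as Slit1, Epha6 and Plxna4os1, have deposited fold changes drawn toward 0.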
